A study of Arabidopsis thaliana with 18 samples.

Results

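Regions of the Arabidopsis thaliana genome that carried a called H3K27me3 peak in each of 9 peak lists are described here. Peaks of all lists on the 5 nuclear chromosomes were merged wherever they shared at least 1 base, which gave 9443 merged regions. Of these, 1443 (15.3%) held a peak of every list and are called the shared regions. They covered 6.74 Mb, 25.8% of all merged bases. The regions were chosen by the presence of called peaks in these lists, so their number, length and enrichment are a description, and only the mRNA measured under them was tested.

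The study asked how H3K27me3 varies between the accessions Col and C24 and how it passes to their F1 hybrid. Shoots of 14-day-old seedlings, grown on plates with sucrose in short days, were the material of every library. ChIP-seq of H3K27me3 had 2 libraries for each of wild-type Col, wild-type C24 and the wild-type F1 of Col and C24, and 1 library for the clf mutant of each. mRNA-seq covered Col clf, C24 clf and F1 clf at 3 libraries a group, so all 9 mRNA libraries came from clf mutants. The Col mutant is a T-DNA insertion line, the C24 mutant carries a chemically induced point mutation in the SET domain, and the mutant F1 is the cross of the 2. Accession and clf allele therefore differed together in the mutants, and mRNA of wild-type plants was not analysed here. Whether replicates were grown as separate cultures is not stated in the labels, and the spread behind each p-value may be technical.

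H3K27me3 is a trimethyl mark on histone H3 placed by Polycomb repressive complex 2. CURLY LEAF (CLF) is one of the methyltransferases of that complex in plants, and SWINGER is a related enzyme that acts beside it. The mark is known to lie over whole gene bodies in Arabidopsis and to keep regulators of flowers, seeds and meristems silent in tissues where they are not used.

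The 9 lists held between 2879 peaks, in wild-type Col replicate 2, and 6353 peaks, in C24 clf. Tags inside peaks, a count the authors give per peak, came to 0.841 M in wild-type C24 replicate 2 and 8.27 M in wild-type Col replicate 1. Depth of the mRNA libraries, estimated from the step that 1 read makes in RPKM (reads per kilobase of gene, scaled to mapped reads), was 14.9 to 23.6 M reads. CLF mRNA was 1.21, 0.99 and 1.37 RPKM in Col clf, 7.2, 7.14 and 8.35 RPKM in C24 clf and 4.35, 3.93 and 4.08 RPKM in F1 clf, so the insertion line stood lowest. All 13 photosynthesis genes on a marker list were at 1 RPKM or more, as the shoot label implies. An rRNA transcript, AT3G41979, was at 6359, 17796 and 2148 RPKM in Col clf, 365, 206 and 122 RPKM in C24 clf and 1363, 14696 and 16022 RPKM in F1 clf.

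Shared regions were long. Their length ran from 484 to 10039 bases with a median of 4364, against a median of 918 bases for the 2608 merged regions with a peak of a single list. Of the shared regions, 592 (41.0%) were 5 kb or longer. The median rose with each further list and was 3734.5 bases in the 1006 regions that missed 1 list. Joining more peaks can only lengthen a region, and the cause of the rise was not tested. In 844 shared regions (58.5%) each list contributed exactly 1 peak, and the most peaks in a single region was 25. Shares of merged regions that were shared lay between 14.3% on chromosome 1 and 16.8% on chromosome 3.

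**Figure D1:**
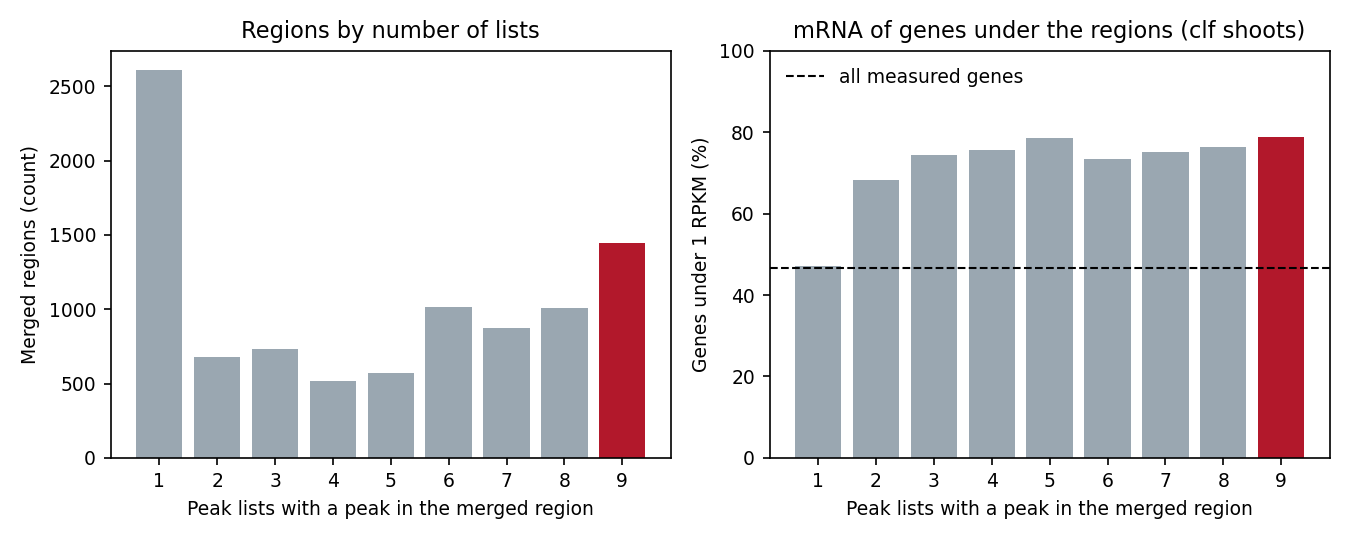
Left, number of merged regions (count) by the number of peak lists with a peak in them; right, percent of genes under those regions with a mean below 1 RPKM in clf shoots, with all measured genes as a dashed line. Red bars are the 1443 shared regions, of whose genes 78.7% were below 1 RPKM, against 47.2% under regions of a single list and 46.5% of all measured genes.

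Not all of a shared region was covered in every list. Bases inside a peak of all 9 lists, called the core here, existed in 1350 regions, while the other 93 were joined through overlapping peaks that no single base had in common. The core had a median of 1003 bases (quartiles 756 and 1386), which was 25.4% of its region at the median, and the cores came to 1.59 Mb in all. Coverage followed the list: the peaks of wild-type Col replicate 1 covered 100% of a shared region at the median, those of wild-type C24 replicate 2 covered 32.0% and those of wild-type Col replicate 2 covered 36.9%. The clf lists lay between, at 68.8% in Col clf, 65.1% in C24 clf and 68.9% in F1 clf.

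Within each list, the best peak of a shared region ranked above the list's middle, at the median, in the authors' fold enrichment per peak. Where a list had several peaks in a region, taking the best raised this rank. At the median, the best peak of a shared region stood at the 75 percentile of its list in Col clf, the highest of the 9, and at the 60.3 percentile in wild-type Col replicate 2, the lowest. The median best fold was 6.69 in Col clf, 7.17 in C24 clf and 7.12 in F1 clf, where all peaks had medians of 5.05, 5.65 and 5.45. In the wild type, replicate 1 had median best folds of 3.88 in Col, 5.12 in C24 and 4.85 in F1, against 3.53, 4.26 and 4.09 over all peaks. Replicate 2 of the wild type had 2.59 in Col, 4.09 in C24 and 3.15 in F1, against 2.48, 3.53 and 2.78. Folds depend on each library's depth and background and were not compared between lists.

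**Figure D2:**
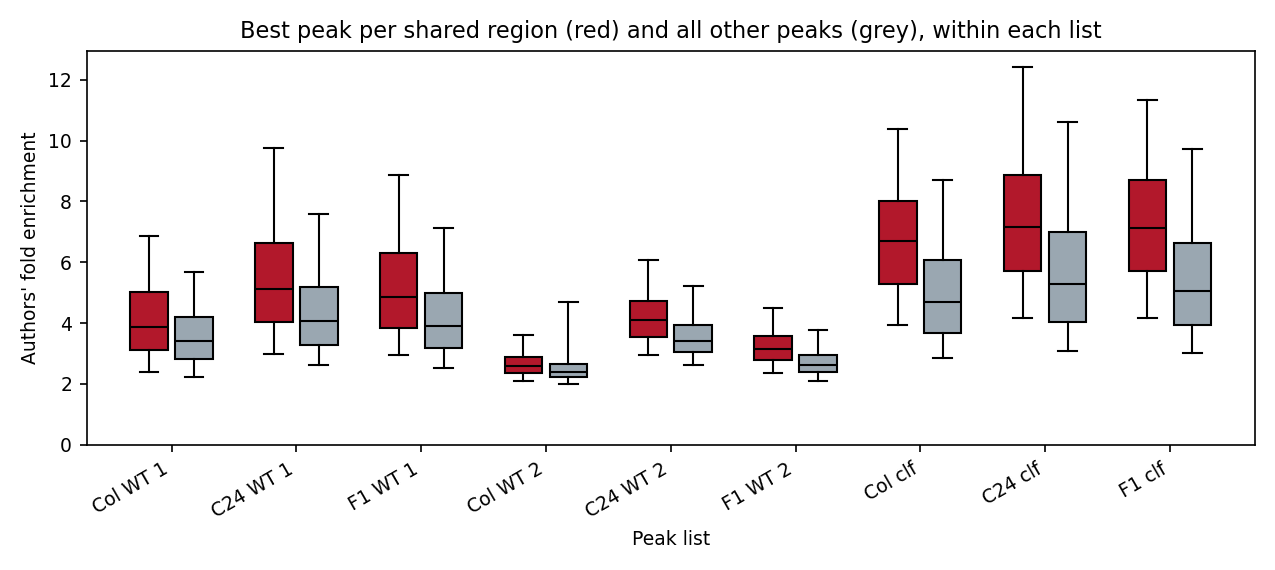
Fold enrichment per peak as the authors give it (y axis) in each of the 9 peak lists (x axis), for the best peak of each shared region (red) and for all peaks outside shared regions (grey); boxes are quartiles, lines medians and whiskers the 5th and 95th percentiles. The red median is above the grey one in each list, for example 6.69 and 4.68 in Col clf, and boxes of different lists are on different scales of depth.

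The longest shared region, chr5:15387514-15397552 (the authors' coordinates, TAIR10, 10039 bases), held 18 peaks. It lies over SPH8, which codes for a secreted S-protein homolog, and CYP735A1, a cytokinin hydroxylase, and over AT5G38437 and AT5G38440. All 4 genes were listed at 0 RPKM in every clf library. The second longest, chr3:16530674-16540636, was built from 25 peaks and mixed genes of unlike level: TCP16, a TCP transcription factor, and GATA14, a zinc finger factor, were listed at 0, while AT3G45160 beside them had a mean of 25.5 RPKM. Among the other 8 of the 10 longest, chr1:27069411-27078701 lies over VND7, a master regulator of vessel cells, at a mean of 0.722 RPKM, and chr4:7431913-7441572 lies over AIR1, an auxin-induced gene of roots, listed at 0. Genes of 10 RPKM or more were also found there, namely AT5G57785 with 16.4 RPKM, AT1G14580 with 15.2 RPKM and AT2G28810 with 12.6 RPKM.

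The regions with the highest enrichment in their weakest list were short. In chr5:11184530-11186743 (2214 bases) the best fold was at or above the 99.8 percentile of all 9 lists, with 9.38 in wild-type Col replicate 1, 26.32 in wild-type C24 replicate 2 and 25.12 in C24 clf. It and the next, chr2:3625094-3627826 (2733 bases, 99.3 percentile), held no measured gene. Tags there were 919 and 639 in wild-type Col replicate 1 but 1383 and 970 in replicate 2. Over all peaks replicate 2 had far fewer, 1.11 M against 8.27 M. The fifth and sixth, chr2:903-3791 and chr2:9218-10741, also had more tags in replicate 2, and the others of the 10 did not. No control library was at hand, and the cause was not tested. The seventh of this ranking, chr3:18744490-18746787, lies over LBD28, a member of the LATERAL ORGAN BOUNDARIES DOMAIN family, at a mean of 0.0344 RPKM. The tenth, chr5:9802738-9805447, lies over AT5G27690, whose mean of 6.09 RPKM was the highest under these 10 regions. The longest core, 3826 bases, lay in chr3:7776938-7782564 over AT3G22080, which was listed at 0. A core of 3656 bases lay in chr5:23762737-23769033, the region of MYB119, a MYB factor, and CYP86A1, a fatty acid hydroxylase of root suberin.

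Just outside the rule stood the 1006 regions in 8 lists. In 549 of them the missing list was wild-type Col replicate 2, the list with the fewest peaks, in 190 it was wild-type C24 replicate 2 and in 176 it was wild-type Col replicate 1. A clf list was the missing one in 11 regions (7 for C24 clf, 3 for F1 clf, 1 for Col clf). Some well-known Polycomb targets were not members. With the 3 lists of wild-type replicate 1 set aside, 1888 regions had a peak in each of the other 6, of which 1416 (75%) met a peak in all 3 set-aside lists and 126 (6.67%) met none. The 126 had a median length of 3673 bases in the 6 lists, against 2846.5 bases for the 1416. WUS and CLV3, the pair that sets stem cell number in the shoot meristem, had a peak in all 6 and in none of the wild-type replicate 1 lists. The same held for AGL8 (FRUITFULL), AFO (FILAMENTOUS FLOWER), AS2, WOX11, CRU3, YUC2, YUC8 and RHD6, which makes 10 of 163 genes on the functional lists examined. AG, the gene of stamen and carpel identity, had a peak in 5 lists, STM in 7 and the flowering repressor FLC in 4. No list held a peak longer than 9312 bases, and whether a limit on peak length left wide domains out was not tested.

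Genes were placed under a shared region where at least 50% of their length lay inside it. This held for 2382 annotated genes, 6.29% of the annotation, among them 1887 protein-coding genes, 266 long noncoding RNAs and 33 microRNA genes. An mRNA value existed for 1994 of them. These are the member genes. A peak of each of the 9 lists lay on the gene itself in 1338 member genes, and the other 656 were joined to the remaining lists only through neighbouring peaks of the same region.

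Most member genes had little mRNA in clf shoots. Their median over the 3 groups was 0.0389 RPKM, against 1.69 RPKM over all 32236 measured genes. Of the 1994, 1570 (78.7%) had a mean below 1 RPKM, against 46.5% of all genes, and 664 (33.3%) were listed at 0 in every library, against 23.4%. Among protein-coding genes alone the shares below 1 RPKM were 77.0% and 36.7%. In bulk tissue, fewer cells that use a gene and less RNA per cell cannot be told apart. The share of member genes at 1 RPKM or more was 19.8%, 19.3% and 19.4% in the Col clf libraries, 22.8%, 21.9% and 22.4% in C24 clf and 21.8%, 19.4% and 20.2% in F1 clf. The C24 clf libraries were the 3 highest and did not overlap those of Col clf, while F1 clf replicate 1 stood above its other libraries. C24 clf was also highest over all genes, with 52.5% to 52.9% in Col clf, 53.7% to 54.0% in C24 clf, 53.3% in F1 clf replicate 1 and 52.4% in both other F1 libraries.

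Genes under regions of fewer lists are given beside them as a description. Genes below 1 RPKM made up 47.2% under regions of 1 list, 68.1% under regions of 2 lists and 73.5% to 78.7% under regions of 3 to 9 lists. Genes of 10 RPKM or more made up 27.3% under regions of 1 list, 14.3% under regions of 2 lists and 5.97% under the shared regions. Under shared regions, genes with all 9 lists on the gene were below 1 RPKM in 75.5% of cases, and those with fewer in 85.4%. Genes under the same regions shifted by 5 to 200 kb in either direction were below 1 RPKM in 40.7% to 42.9% of cases, a check that gene and peak coordinates lay in register.

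**Figure D3:**
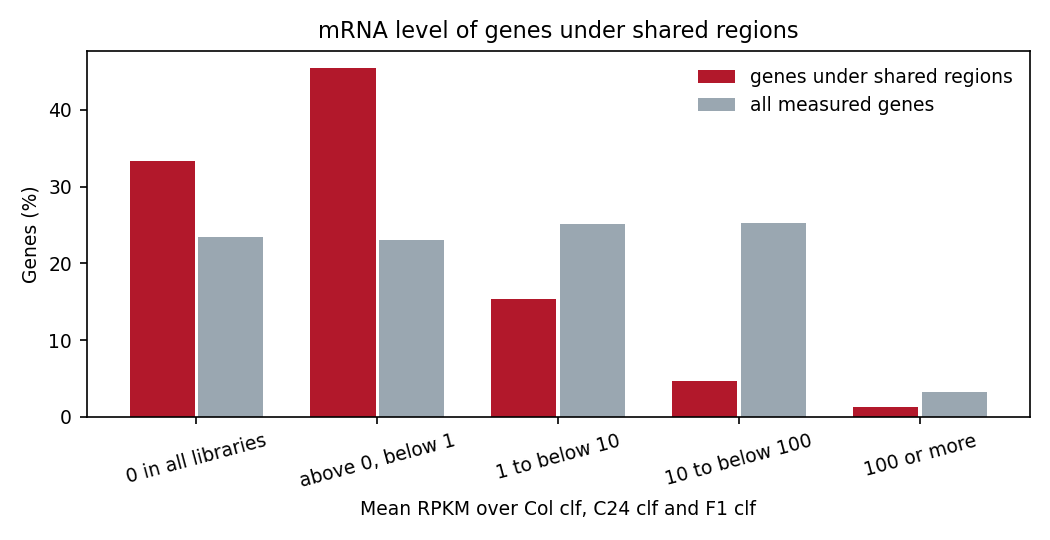
Percent of genes (y axis) in classes of mean RPKM over the 3 clf groups (x axis), for the 1994 genes under shared regions (red) and all 32236 measured genes (grey). Genes listed at 0 make up 33.3% and 23.4%, and genes of 10 to below 100 RPKM make up 4.66% and 25.2%.

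Of 1353 shared regions with a measured gene, 957 (70.7%) had all their genes below 1 RPKM and 116 (8.57%) had a gene of 10 RPKM or more. A single measured gene was all that 869 of them held. Among the 484 regions with at least 2 genes, 326 had all below 1 RPKM, and 49 joined a gene below 1 RPKM to a gene of 10 RPKM or more. Regions with a gene of 10 RPKM or more had a median length of 5079.5 bases, against 4278 for those with only genes below 1 RPKM. Their best peaks stood lower in the list's own ranking in 8 of the 9 lists. In wild-type replicate 1 they stood at the 51.6 percentile against 61.5 in Col, 57.3 against 69.9 in C24 and 62.5 against 67.8 in F1. In the clf lists they stood at 68.7 against 74.3 in Col clf, 66.9 against 71.6 in C24 clf and 66.7 against 73.7 in F1 clf. In wild-type replicate 2 the gaps were smaller, at 56.6 against 58.8 in Col and 70.3 against 72.1 in C24, and the order was the other way in F1, at 71.4 against 70.8. The 6 measured genes in chr4:14423607-14431005 were the most in a single region, and LCR21, LCR22 and LCR23, small cysteine-rich proteins of the defensin type, were among them and listed at 0.

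A mean of 10 RPKM or more was reached by 119 member genes (5.97%) and one of 100 RPKM or more by 26 (1.30%), against 28.4% and 3.21% of all genes. Of the 119, 84 had a peak of all 9 lists on the gene itself, as had 17 of the 26. ESP, the epithiospecifier protein that steers glucosinolate breakdown toward epithionitriles and nitriles, was the highest at 18, 19 and 14.6 RPKM in Col clf, 2594, 2597 and 2509 RPKM in C24 clf and 1665, 1631 and 1641 RPKM in F1 clf. TGG2, a myrosinase that opens glucosinolates, came next at 494, 493 and 524 RPKM in Col clf, 535, 516 and 646 RPKM in C24 clf and 754, 758 and 813 RPKM in F1 clf. The 3 groups of ESP lay far apart with Col clf lowest, whereas for TGG2 the parents overlapped and F1 clf stood above both. PRP4, a proline-rich cell wall protein, had 458, 506 and 502 RPKM in Col clf, 372, 447 and 375 RPKM in C24 clf and 545, 614 and 614 RPKM in F1 clf. MAM1, which lengthens the side chain of methionine in glucosinolate synthesis, had 221, 207 and 184 RPKM in Col clf, 567, 490.1 and 444 RPKM in C24 clf and 348, 318 and 286 RPKM in F1 clf. GER3, a germin-like apoplast protein, had 255, 267 and 254 RPKM in Col clf, 359, 430.1 and 384 RPKM in C24 clf and 295, 304 and 289.7 RPKM in F1 clf. Both MAM1 and GER3 were highest in C24 clf with no overlap between C24 clf and Col clf. PIFI, a chloroplast protein, was at 327 RPKM or more in each library, but only 3 lists had a peak on the gene itself, so its region reached it by chaining. BBX14, a B-box factor, likewise had 7 lists on the gene, whereas the glycine-rich GRP23 and AT1G23130 had all 9.

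Members of functional gene lists were then counted, beside the 6.29% of the whole annotation that lay under shared regions. Of 14 floral organ MADS-box genes, 9 (64.3%) were under a shared region. Seed genes followed with 11 of 21 (52.4%), auxin synthesis and transport genes with 10 of 22 (45.5%), flowering time genes with 6 of 20 (30%), leaf polarity genes with 4 of 15 (26.7%) and meristem and embryo regulators with 5 of 24 (20.8%). No photosynthesis gene of 13 and no housekeeping gene of 12 was under one. Root markers had 2 of 8, SHR and RSL4, and the genes of Polycomb proteins and H3K27 demethylases had 1 of 14, EMF1. Shares of the larger families lay between 19.4% and 21.0% (25 of 120 MYB, 17 of 81 NAC, 13 of 67 WRKY and 8 of 39 LBD genes), with 7 of 30 CLE peptide genes and 2 of 16 TCP genes. MicroRNA genes had 33 of 326 (10.1%), among them MIR172c, MIR319a and MIR160a, microRNAs of flowering, leaf shape and auxin response. Only 5 of the 19 measured microRNA genes among them had a peak of all 9 lists on the gene itself, against 1338 of the 1994 member genes.

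C24 clf was compared with Col clf by limma on log2(RPKM + 1) across 17819 genes that reached 1 RPKM in 3 or more libraries. That filter kept 466 of the 1994 member genes. Of the 466, 272 (58.4%) passed an adjusted p of 0.05, with 177 (38%) higher and 95 (20.4%) lower in C24 clf, and the median difference was 0.14 on the log2 scale. Over all tested genes 44.5% passed, with 31.8% higher and 12.7% lower, and the median was 0.13. Of the 466, 52 passed the filter with a mean of 1 RPKM or more in a single group (37 in C24 clf, 14 in Col clf, 1 in F1 clf). The filter lets in genes through the group where they are high, though not all of them were called. AT5G04690, with means of 0.933, 1.1 and 0.953 RPKM in Col clf, C24 clf and F1 clf, had a limma adjusted p of 0.40. Such genes were not counted among all tested genes, so the members' share is not read as a property of the regions. A difference of at least 2-fold on this scale was called for 98 of the 466 member genes, 71 higher and 27 lower. Over all 17819 tested genes it was called for 1263, 770 higher and 493 lower. Quantile normalization moved the split of the members' calls to 141 higher and 122 lower, with a median over all genes of 0.01. The summed RPKM of the 8 root markers was 231 to 238 in C24 clf, 112 to 124 in Col clf and 148 to 165 in F1 clf, with 3 of 8 at 1 RPKM or more, and its part in these differences was not tested. The rRNA transcript AT3G41979 also moved with this contrast, since all C24 clf libraries lay far below all Col clf libraries. Without the 3 libraries highest in it, 242 member genes were called, 159 higher and 83 lower, and 37.5% of all genes.

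**Figure D4:**
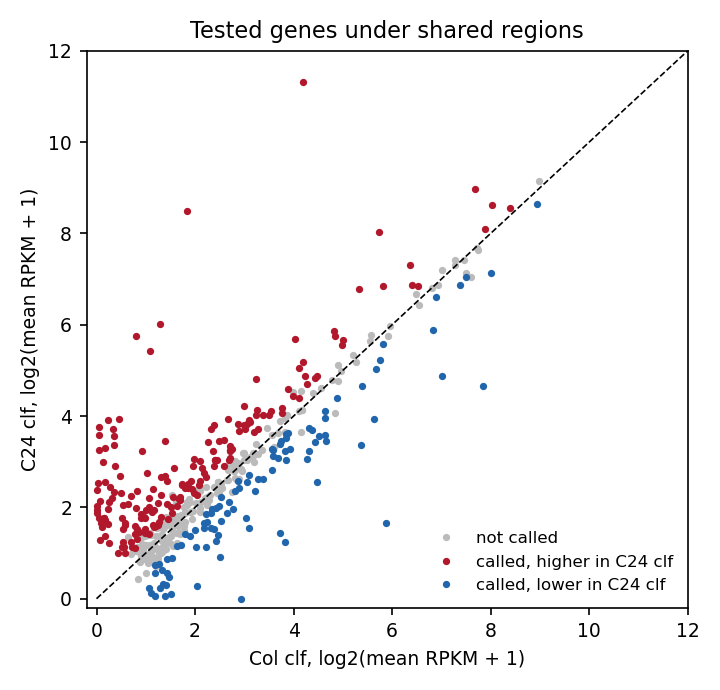
Mean level of the 466 tested genes under shared regions in Col clf (x axis) and C24 clf (y axis), as log2(mean RPKM + 1), 1 point a gene, with the line of equal levels dashed. Red points are the 177 genes called higher in C24 clf by limma and blue points the 95 called lower.

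Floral organ genes were higher in C24 clf. All 6 members of this list that could be tested rose in C24 clf against Col clf, where 31.8% of all tested genes were called higher, and 3 members (SEP2, CAL and AGL6) were below the filter. SEP1 reached a mean of 1 RPKM in C24 clf alone, so it came into the test through the group where it was high. SEP3, a cofactor of the floral organ complexes and the most abundant of them, stood at 47.8, 47.2 and 61.5 RPKM in Col clf, 256, 239.7 and 285 RPKM in C24 clf and 129, 108 and 130.3 RPKM in F1 clf. The difference was 2.30 ± 0.11 (SE, limma adjusted p = 1.6e-08) on the log2 scale, and the F1 libraries lay between the groups of the parents. PI, one of the pair of petal and stamen identity factors, had 2, 1.39 and 1.48 RPKM in Col clf, 8.05, 9.48 and 12.5 RPKM in C24 clf and 2.94, 3.01 and 3.69 RPKM in F1 clf. Its difference was 2.06 ± 0.15 (SE, limma adjusted p = 5.3e-07), with no overlap of C24 clf and Col clf. Its partner AP3 had 0.53, 0.41 and 0.3 RPKM in Col clf, 4.33, 2.91 and 4.75 RPKM in C24 clf and 1.6, 1.18 and 1.44 RPKM in F1 clf, a difference of 1.81 ± 0.15 (SE, limma adjusted p = 1.6e-06). SEP1 differed by 1.26 ± 0.16 (SE, limma adjusted p = 5.8e-05), and the carpel and fruit genes SHP1 and SHP2 by 1.19 ± 0.12 (SE, limma adjusted p = 1e-05) and 0.90 ± 0.11 (SE, limma adjusted p = 6.7e-05). In all 6 the lowest C24 clf library was above the highest Col clf library. Libraries of these 2 groups were apart, in either direction, in 63.5% of tested member genes and 55.4% of all tested genes. CAL, a regulator of floral meristem identity that did not exceed 0.19 RPKM in any library, had a peak of only 4 lists on the gene.

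Seed genes were mostly silent. Of 11 members, 4 were at 1 RPKM or more and all 4 were called higher in C24 clf, as were 31.8% of all tested genes. The storage protein gene CRA1 was higher by 4.32 ± 0.7 (SE, limma adjusted p = 0.0004), the oil body gene OLEO1 by 2.88 ± 0.54 (SE, limma adjusted p = 0.0012), OLEO2 by 2.48 ± 0.42 (SE, limma adjusted p = 0.00056) and AGL38 by 3.35 ± 0.17 (SE, limma adjusted p = 2.9e-08). CRA1 was spread widely, with 1.23, 2.04 and 0.1 RPKM in Col clf, 71.1, 26.9 and 28.4 RPKM in C24 clf and 26.9, 2.04 and 20 RPKM in F1 clf. C24 clf replicate 1 was its highest library and F1 clf replicate 2 was far below the other F1 libraries. OLEO1 had 0.34, 0.52 and 0 RPKM in Col clf, 15.8, 5.33 and 6.62 RPKM in C24 clf and 6.14, 0.1 and 1.98 RPKM in F1 clf, again highest in C24 clf replicate 1 and lowest among the F1 libraries in replicate 2. AGL38 (PHERES2), a MADS-box gene of the endosperm, was more even, with 0.22, 0.4 and 0.16 RPKM in Col clf, 9.93, 15.9 and 10.4 RPKM in C24 clf and 5.83, 6.97 and 4.59 RPKM in F1 clf. CRU2 and SESA4, further storage protein genes, were listed at 0 in every library. FUS3 and ABI3, master regulators of seed maturation, did not exceed 0.24 and 0.38 RPKM. OLEO2 had only 2 lists on the gene itself.

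Flowering time genes did not move together. AGL20, better known as SOC1, a MADS-box promoter of flowering in chr2:18802691-18811431, was at 40.5, 42.6 and 37.8 RPKM in Col clf, 8.31, 10.4 and 9.1 RPKM in C24 clf and 8.57, 7.06 and 7.78 RPKM in F1 clf. C24 clf and F1 clf both lay far below Col clf and overlapped each other. C24 clf was lower than Col clf by a log2 difference of -2.01 ± 0.095 (SE, limma adjusted p = 1.4e-08). AGL6, a floral MADS-box gene in the same region, did not exceed 1.29 RPKM in any library. AGL17 was higher in C24 clf by 0.79 ± 0.13 (SE, limma adjusted p = 0.00048), and AGL42 differed by 0.31 ± 0.12 (SE, limma adjusted p = 0.055). TSF, a close relative of the florigen FT, was listed at 0 throughout. LFY, which triggers flower formation, did not exceed 0.1 RPKM in any library, and TFL1, which holds the inflorescence open, did not exceed 0.81 RPKM.

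Among auxin genes, TAA1, the aminotransferase of the first step of auxin synthesis, was lower in C24 clf, with 7.05, 6.86 and 8.81 RPKM in Col clf, 2.02, 1.73 and 1.98 RPKM in C24 clf and 3.63, 3.65 and 4.67 RPKM in F1 clf and a difference of -1.55 ± 0.11 (SE, limma adjusted p = 7.5e-07). F1 clf lay between the parents without overlap. PIN6, an auxin transporter, differed by -0.30 ± 0.12 (SE, limma adjusted p = 0.066). YUC1, YUC4 and the root exporter EIR1 were below the filter, and YUC10 and TAR1 were listed at 0. In the leaf polarity list YAB2 was higher in C24 clf by 0.28 ± 0.079 (SE, limma adjusted p = 0.014) and YAB5 lower by -0.60 ± 0.14 (SE, limma adjusted p = 0.0045), while CRC and INO, YABBY genes of carpels and ovules, did not exceed 0.06 RPKM. In the meristem and embryo list AIL6 was higher by 0.35 ± 0.11 (SE, limma adjusted p = 0.025) and WOX1 differed by -0.20 ± 0.12 (SE, limma adjusted p = 0.2). CUC3, which sets organ boundaries, was below the filter, and BBM, an inducer of embryos, was listed at 0. SHR, a root patterning factor also active in leaves, was higher by 0.65 ± 0.1 (SE, limma adjusted p = 0.00036), and RSL4, a root hair regulator, was listed at 0.

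EMF1, a plant-specific Polycomb protein, was itself under a shared region, chr5:3695447-3699003, with 6.4, 6.12 and 6.39 RPKM in Col clf, 12.6, 13 and 14 RPKM in C24 clf and 8.01, 7.25 and 6.85 RPKM in F1 clf. C24 clf was above both other groups without overlap and differed from Col clf by 0.96 ± 0.08 (SE, limma adjusted p = 2e-06). Of the larger families, 2 of 7 tested NAC genes were higher in C24 clf and none lower, 3 of 6 WRKY genes were higher and 1 lower, and 1 of 4 CLE genes was lower. Over all tested genes 31.8% were called higher and 12.7% lower, and such small counts are not read as a trait of a family. No LBD gene of 8 reached 1 RPKM. Only 2 of 25 MYB genes were tested. MYB28, the main activator of aliphatic glucosinolate genes, had 16.1, 16.7 and 18.6 RPKM in Col clf, 38.8, 32.2 and 35.4 RPKM in C24 clf and 22.3, 21.2 and 20.9 RPKM in F1 clf and was higher in C24 clf by 1.01 ± 0.083 (SE, limma adjusted p = 1.9e-06). MYB51, an activator of indole glucosinolate genes, differed by 0.07 ± 0.11 (SE, limma adjusted p = 0.63).

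**Figure D5:**
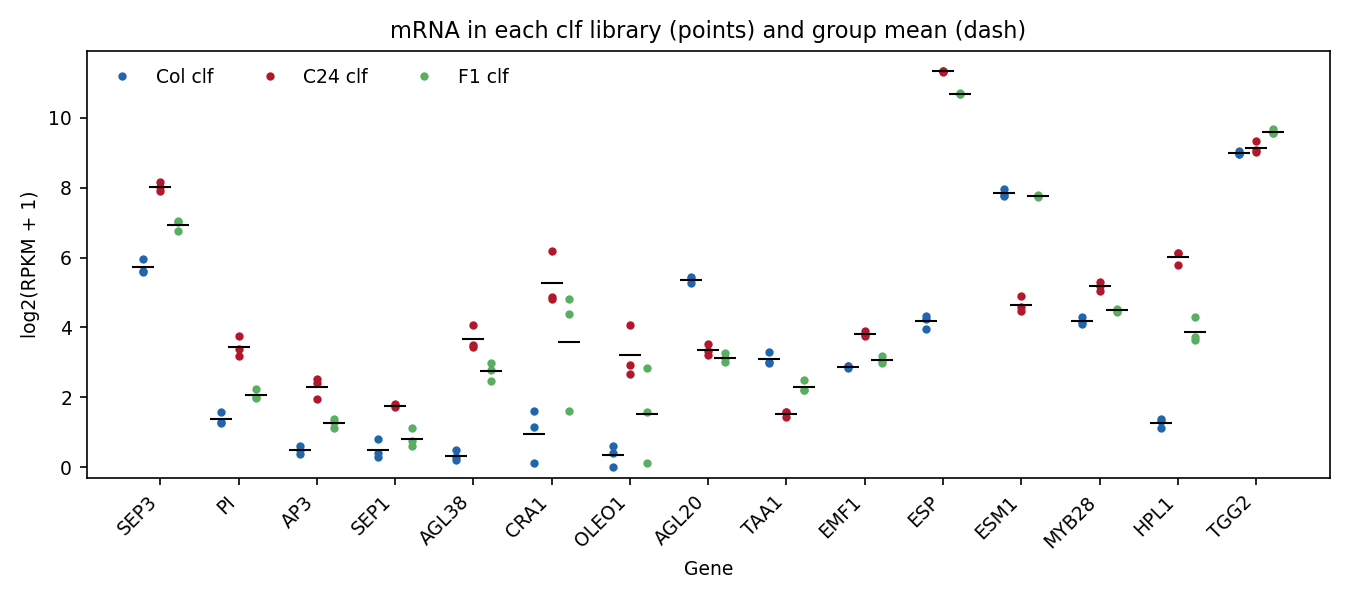
log2(RPKM + 1) (y axis) of 15 genes under shared regions (x axis) in the 3 libraries each of Col clf (blue), C24 clf (red) and F1 clf (green), with the group mean as a dash. SEP3, PI, AP3 and SEP1 are highest in C24 clf, AGL20 is highest in Col clf with F1 clf beside C24 clf, and the F1 clf libraries of CRA1 and OLEO1 are spread widely.

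By size, ESP had the highest difference between C24 clf and Col clf among member genes. It differed by 7.15 ± 0.083 (SE, limma adjusted p = 1.3e-13), with C24 clf above F1 clf and F1 clf above Col clf. AOP2, a dioxygenase that forms alkenyl glucosinolates and is annotated as a transcribed pseudogene in the Col reference, had 2.69, 3.04 and 1.92 RPKM in Col clf, 433, 311 and 332 RPKM in C24 clf and 169, 141 and 124 RPKM in F1 clf and a difference of 6.66 ± 0.15 (SE, limma adjusted p = 1.6e-11). How reads shared with its neighbour and close relative AOP3 were counted is not given. HPL1, a hydroperoxide lyase, had 1.61, 1.2 and 1.5 RPKM in Col clf, 69.1, 68.5 and 54.4 RPKM in C24 clf and 18.5, 12.2 and 11.6 RPKM in F1 clf and a difference of 4.73 ± 0.16 (SE, limma adjusted p = 5.2e-10). M17, a gene of late embryo development, differed by 5.04 ± 0.57 (SE, limma adjusted p = 2.5e-05), with F1 clf replicate 2 far below the other F1 libraries. BGLU19, a beta-glucosidase, NSP2, a nitrile specifier protein, LCR67, a defensin-like peptide, and AT5G35660 were the remaining ones of the 10 highest besides CRA1 and AGL38, with differences of 3.40 to 3.71. In each of them F1 clf replicate 2 was again the lowest F1 library, at 0.41, 0.03, 0.32 and 0.29 RPKM. C24 clf replicate 1 stood far above its group in BGLU19, NSP2 and AT5G35660, while LCR67 was even in C24 clf. The 10 were picked among called genes whose C24 clf and Col clf libraries did not overlap, so that separation was a condition of the choice.

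The lowest values in C24 clf against Col clf included AT2G33850, with 56.8, 57.4 and 57.9 RPKM in Col clf, 2.27, 2.45 and 1.71 RPKM in C24 clf and 26.2, 26.9 and 25.1 RPKM in F1 clf and a difference of -4.22 ± 0.089 (SE, limma adjusted p = 8.6e-12). ESM1, a lipase-like protein that favours isothiocyanate over nitrile formation, had 220.2, 249.6 and 215 RPKM in Col clf, 22.8, 28.9 and 21.4 RPKM in C24 clf and 214, 219 and 212 RPKM in F1 clf. It differed by -3.18 ± 0.1 (SE, limma adjusted p = 3.4e-10), and the F1 clf libraries stood within or just below the range of Col clf. AT1G69140 had 5.17, 9.15 and 5.63 RPKM in Col clf and 0, 0 and 0 RPKM in C24 clf, where it is listed at 0. It had a peak of 4 lists on the gene. PMAT2, a malonyltransferase of phenolic glucosides, differed by -2.59 ± 0.11 (SE, limma adjusted p = 5.6e-09). LUP1, a lupeol synthase, differed by -2.29 ± 0.079 (SE, limma adjusted p = 8.1e-10) and VSP2, a jasmonate-induced storage protein, by -2.14 ± 0.16 (SE, limma adjusted p = 8.2e-07). AT3G06470, GLC and PRP2 completed the 10, which include AGL20, with differences of -1.92, -1.75 and -1.70.

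F1 clf was then compared with the mid-parent, the mean of the fitted levels of Col clf and C24 clf. Of the 466 tested member genes, 37 (7.94%) passed, 9 above (1.93%) and 28 below (6.01%), with a median difference of -0.08. Over all tested genes 6.73% passed, 0.37% above and 6.36% below, with a median of -0.12. With the replicate number as a block the members' count rose to 113, with 25 above and 88 below, while 25.1% of all genes passed. Without the 3 libraries highest in AT3G41979 (Col clf replicate 2, F1 clf replicates 2 and 3) 1 member gene, AGL20, was called, while 0.017% of all genes passed, and this fit has a lone F1 library that is assumed to vary like the other groups. Fits that left out 1 library each called 12 to 74 member genes. Without F1 clf replicate 2 they called 12 of 464 tested members and 1.2% of all genes, and without F1 clf replicate 3 they called 13 of 461 and 1.01%. Leaving out replicate 3 of C24 clf gave 17 of 447 and 2.19%, dropping Col clf replicate 1 gave 22 of 454 and 3.4%, and without replicate 1 of F1 clf the fit called 74 of 458 and 19% of all genes. Under quantile normalization the members' calls were 11 above and 14 below, while 2.21% of all genes passed.

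AGL20 was furthest below the mid-parent, at -1.55 ± 0.087 (SE, limma adjusted p = 1.7e-05), with its F1 libraries overlapping those of C24 clf, the lower parent. AT4G19430, which was nearly silent in Col clf, had 0.09, 0 and 0 RPKM in Col clf, 8.29, 7.31 and 10.1 RPKM in C24 clf and 1, 0.77 and 1.69 RPKM in F1 clf. Its F1 libraries lay nearer to Col clf, -1.31 ± 0.15 (SE, limma adjusted p = 0.0014) from the mid-parent. AT3G49270 had a like pattern and a difference of -1.47 ± 0.17 (SE, limma adjusted p = 0.0014). It reached a mean of 1 RPKM in C24 clf alone, so it came into the test through the group where it was high. HPL1 stood below the mid-parent by -1.18 ± 0.15 (SE, limma adjusted p = 0.0029) and PI by -0.68 ± 0.13 (SE, limma adjusted p = 0.018). EMF1 was also below, by -0.36 ± 0.07 (SE, limma adjusted p = 0.017), as were ABS2, a B3 domain factor, and CYP79B3, an enzyme of indole glucosinolate synthesis, whose differences were -0.65 ± 0.098 (SE, limma adjusted p = 0.0059) and -0.64 ± 0.16 (SE, limma adjusted p = 0.042). The call for PI was lost without F1 clf replicate 2, that for CYP79B3 without any 1 of 7 libraries.

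ESM1 was furthest above the mid-parent, by 0.77 ± 0.095 (SE, limma adjusted p = 0.0022), its F1 libraries being close to those of Col clf, the higher parent. TGG2 was above by 0.54 ± 0.072 (SE, limma adjusted p = 0.0035), and all 3 F1 libraries exceeded all 6 parental libraries. PRP4 was above by 0.42 ± 0.073 (SE, limma adjusted p = 0.011), likewise with every F1 library above every parental one, and lost its call without F1 clf replicate 2 or 3. ESP was above by 0.35 ± 0.083 (SE, limma adjusted p = 0.034), although its F1 libraries lay between the parents, and lost its call in 6 of 9 fits that left out 1 library. KCS16, a ketoacyl-CoA synthase of wax and lipid chains, was above by 0.34 ± 0.066 (SE, limma adjusted p = 0.018) and also lost its call without F1 clf replicate 2 or 3. AT4G22485, AT5G42200, AT4G29020 and AT3G23840 were the remaining 4 of the 9 called above, with differences of 0.26 to 0.53. Each of these 4 lost its call without F1 clf replicate 2 or 3 as well.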

How the data were processed

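H3K27me3 peak lists of 9 libraries and mRNA files of 9 libraries were used, grouped by the labels. Per the submitters' processing notes, TopHat, Bowtie and the TAIR10 build were used, with no version given. The peak caller, its control, the counting program and the treatment of strand and of reads with several positions are not given in the sources at hand, so reads of overlapping or antisense genes, and of near-identical copies, cannot be told apart. TAIR10 is a genome of Col, and how mismatches of C24 and F1 reads were handled is not given either. The deposited lists give per peak a tag count, a score and a fold enrichment, all the authors' own values, which served only to describe and order peaks inside a list or to filter them. The deposited mRNA values are RPKM, identified from the values. Of 34133 lines per mRNA file, 1141 lines of 567 repeated IDs were left out. An exact 0 is reported as listed at 0.

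Peaks were merged with pandas 2.3.3 in Python 3.11.15. Gene names, biotypes and spans came from the RefSeq annotation of TAIR10.1, which matched 32236 of 32992 measured IDs, and no gene coordinate is printed. log2(RPKM + 1) of genes at 1 RPKM or more in at least 3 libraries was fitted with limma 3.58.1 (R 4.3.3), with all 3 groups sharing 1 spread and Benjamini-Hochberg adjustment over all 17819 genes at 0.05. Differences on this scale understate the change of genes near 1 RPKM. The fit was tested on simulated data with independent noise and changes set in C24 clf only. That test held no pairing of libraries and did not score the recovery of mid-parent differences. Same-numbered libraries deviated together (correlations of 0.169 to 0.426 in all 9 pairs), so the replicate numbers were taken to pair them and a fit with the number as a block was run. The differences, standard errors and p-values printed for single genes came from the fit without the block and leave this pairing out. No 2 libraries shared more than 0.971% identical values. Named genes were members of the gene lists, genes under the 10 longest regions and the 10 regions with the highest percentile of fold in their weakest list, the 10 highest and 10 lowest called differences with libraries apart, and the 10 highest means. A few further regions and genes, those with the most genes or the longest core, were chosen after their values were seen. The shared regions, lists and tests were chosen with earlier results of these data known. The number of mRNA libraries and the depth of 14.9 to 23.6 M reads limit the precision.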

Additional observations from a re-analysis of the deposited data

Results flagged for a closer look

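The 9 lists also held 157 peaks on the organelle chromosomes, 156 on the mitochondrial and 1 on the plastid chromosome, which were left out of the merged regions. They are named here because they are a signal in data that no comparison uses, and no control library was at hand to set them against.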

How the results depend on the processing

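The 1443 shared regions numbered 1350 where 1 base had to lie in all 9 lists, 1442 with peaks up to 200 bases apart merged and 1444 to 1991 without any 1 list, the highest without wild-type Col replicate 2. They numbered 160 where each list had to cover at least 50% of the region and 720 with peaks of score 100 or more. The 1994 member genes numbered 2782 at any overlap, 1338 with all 9 lists on the gene and 911 with at least 50% of the gene in the core. Genes at 1 RPKM or more numbered 424, and 1046 at any overlap, 201 with the core rule, 328 with all 9 lists on the gene, 186 at a threshold of 5 RPKM and 419 to 429 without any 1 library.

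Calls for C24 clf against Col clf numbered 272, and 136 with a filter of 5 RPKM, 423 without a filter, 510 at any overlap, 131 with the core rule and 230 to 277 without any 1 library. Calls for F1 clf against the mid-parent numbered 37, and 27 with a filter of 5 RPKM, 25 without a filter, 25 with quantile normalization, 73 at any overlap, 17 with the core rule, 12 to 74 without any 1 library and 1 without the 3 libraries highest in AT3G41979. With the replicate block they numbered 113, and those for C24 clf against Col clf 305. The cause of these moves was not tested, apart from filters and overlap rules, which change the number of genes counted. All 20 genes named for C24 clf against Col clf kept their call in each fit that could test them, and of the 19 named for the mid-parent only AGL20 did. The rules on all 9 lists on the gene, on the AT3G41979 libraries and on the 3 wild-type replicate 1 lists were chosen after seeing the data. Placing genes by their start was not run, because the annotation used gives no strand. The clf lists and depth limit this account: each clf genotype has 1 list, and wild-type replicate 2 lists hold 0.841 to 1.89 M tags in peaks against 5.24 to 8.27 M in replicate 1.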
